A study of Rattus norvegicus with 8 samples.

Results

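The extracellular matrix genes of the rat testis were followed after a single dose of Adjudin. They comprise the collagens and 20 listed genes for other matrix proteins and matrix-modifying enzymes. A gene was included if a probe set of the array carried its symbol and no other symbol, and if that probe set had a deposited signal of 50 or more on at least 2 of the 8 arrays. Of 61 such genes with 90 probe sets, 43 genes with 58 probe sets met this minimum, namely 25 of 41 collagen genes and 18 of the 20 listed genes. They were 58 of the 19808 probe sets tested.

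The extracellular matrix is the scaffold of proteins and sugars outside cells. Collagens are assembled from 3 chains wound into a triple helix, and each chain is hydroxylated on proline before it is secreted and, in the fibrillar types, cross-linked afterwards. In the testis the seminiferous tubule is wrapped in a basement membrane rich in type IV collagen and laminin, on which Sertoli cells and spermatogonia sit, and then in peritubular myoid cells and collagen fibres. Between the tubules lies a loose connective tissue with Leydig cells, vessels, fibroblasts and macrophages.

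The study measured total RNA of whole testes from adult Sprague-Dawley rats on 8 Affymetrix rat arrays, 1 array per sample. Testes were taken 4 d (3 arrays) and 8 h (2 arrays) after 1 dose of Adjudin, given by gavage at 50 mg/kg body weight, and from untreated rats as the control (3 arrays). Adjudin is a compound known to loosen the attachment of developing germ cells to Sertoli cells, and the series title names germ cell loss as its subject. No vehicle group is named. Groups were taken from the titles, since the description of all 8 samples reads normal testis. The labels do not say whether the arrays of a group are different animals, so the p-values reflect the variation among arrays, part of which could be technical.

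Hybridisation dates put control 1, 8 h 1 and 4 d 1 in run 1, control 2 and 4 d 2 in run 2, and control 3, 8 h 2 and 4 d 3 in run 3. The settings files of both run 2 arrays give mouse as sample type, whereas the labels give rat for all 8 samples. They also name version 4 of the fluidics protocol, where those of the other arrays name version 5. Each array had a 2% trimmed mean of 250.1, and 51.7% to 59.0% of its non-control probe sets reached a signal of 50. Medians were lower in run 3 (57.1 on control 3, 54.3 on 8 h 2 and 61.1 on 4 d 3) than on the other arrays (68.9 to 72.0). The number of arrays limits the precision. Protamine and transition protein genes (Prm1, Prm2, Tnp1, Tnp2), which mark late spermatids, and Insl3 and Star, which mark Leydig cells, were well above the minimum on every array.

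Matrix genes that changed at 4 d mostly rose. In a limma fit over all 19808 probe sets, 18 of the 58 matrix probe sets were higher at 4 d than in control at an adjusted p below 0.05 (31.0%) and 2 were lower (3.45%), where 6.13% of all probe sets were higher and 3.71% lower. The median difference over the 58, on the scale of log2(signal + 16), was 0.55, against 0.036 over all probe sets tested. Counted by the brightest probe set of each gene, 11 of 43 genes rose, 2 fell and 30 did not pass. The genes that rose were Tgm2, Spp1, Col18a1, Fbn1, Col3a1, Bgn, Col4a5, Mgp, Col6a2, Nid1 and Col4a1. Those that fell were Col22a1 and Col16a1. The 4 d arrays lay above every control for 25 of the 58 probe sets and below every control for 4, where 17.4% and 11.8% of all probe sets did.

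A block for the run gave 24 matrix probe sets above control and 3 below, where 13.3% and 9.17% of all probe sets were called. The count of 18 was 9 after the arrays were scaled to equal medians, 10 without 4 d 1, 4 d 3 or control 2, and 11 without control 1. The shares of all probe sets under these settings are not given. A loss of calls particular to matrix genes thus cannot be told from a loss across the array. Because a whole tissue was measured, more cells of a type and more RNA per cell cannot be told apart. Of the 58 probe sets 37 reached the minimum on all 8 arrays, while 4 (of Lum, Col5a1, Col9a3 and Col15a1) reached it only through 4 d arrays, 2 (of Col12a1 and Col14a1) only through controls and 1 (of P4ha2) only through 8 h arrays.

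**Figure D1:**
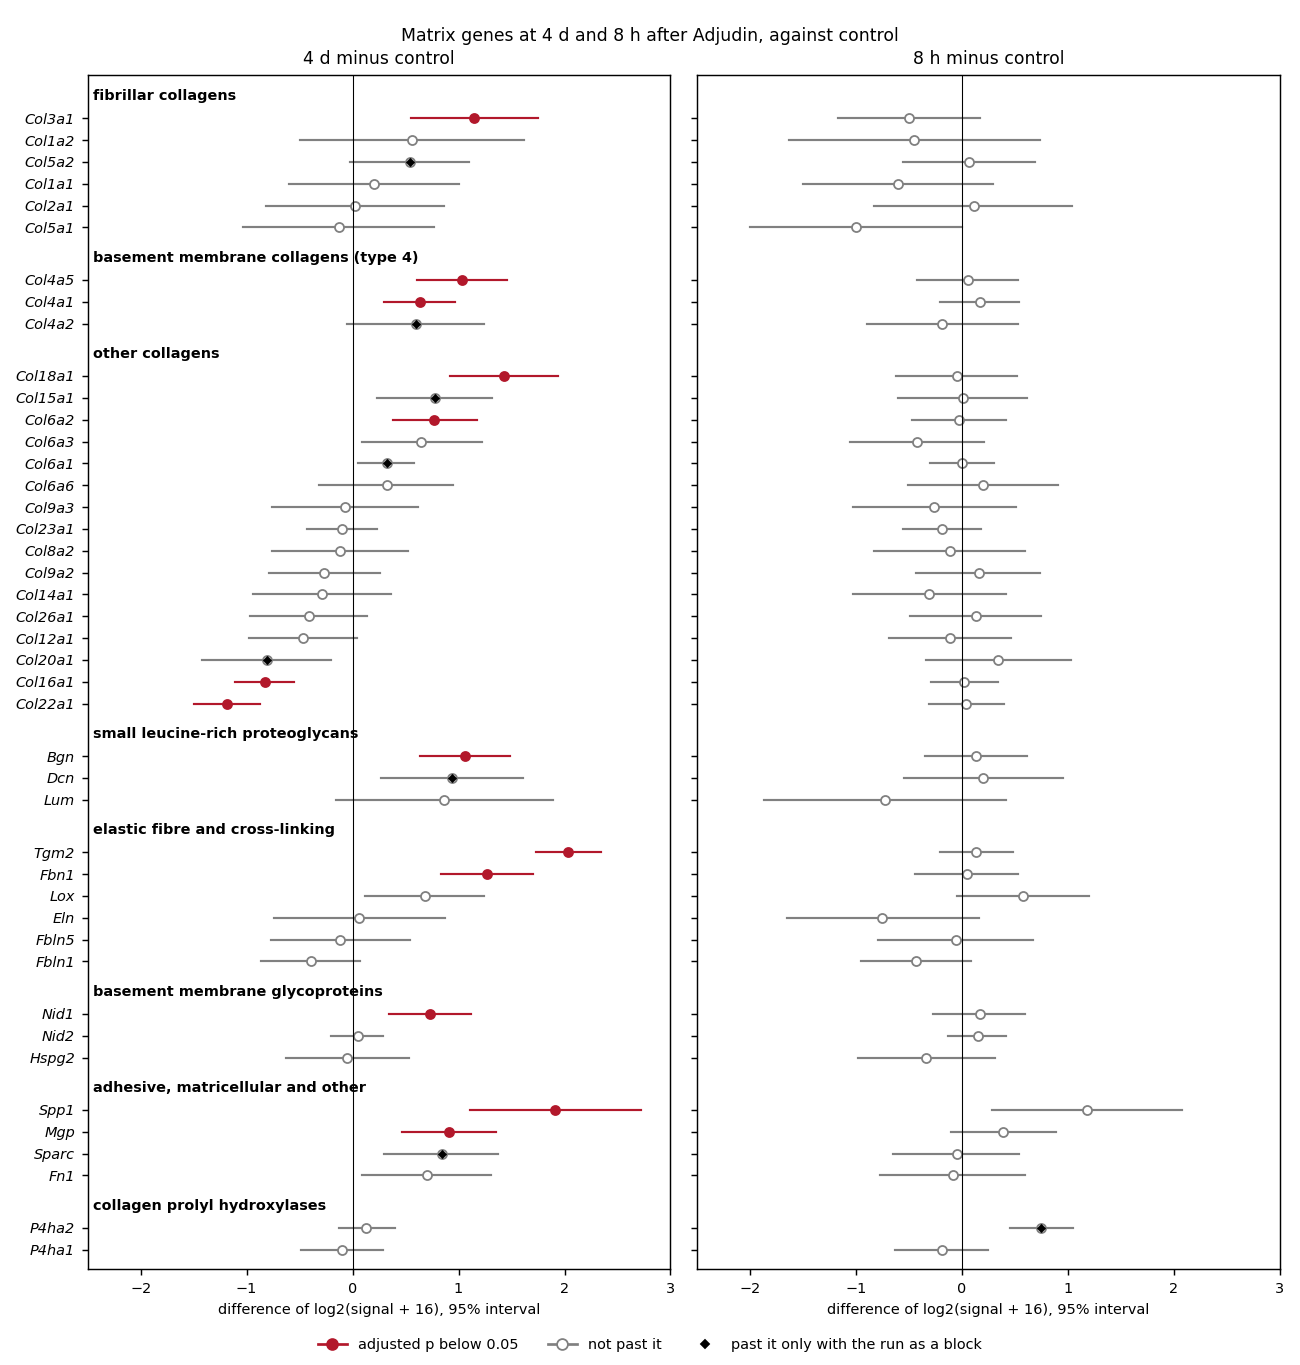
Difference of log2(signal + 16) from control for the 43 matrix genes by role, at 4 d (left) and 8 h (right), with 95% intervals. Filled red points passed an adjusted p of 0.05 and black diamonds passed it only with runs blocked. At 4 d 11 genes lie to the right and 2 to the left past the threshold, and at 8 h none (0) does without the block.

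Type IV collagen forms the network of basement membranes, and its chains are encoded in head-to-head gene pairs. Col4a5 had signals of 823.5, 615.7 and 978.1 at 4 d, 373.2 and 416.4 at 8 h, and 400.3, 312.3 and 434.2 in the controls. The lowest 4 d array lay above the highest control, a 2.05-fold rise on the log2(signal + 16) scale (log2 1.03, SE 0.19, limma adjusted p = 0.00842), with log2 differences of 1.01, 0.94 and 1.14 in runs 1, 2 and 3. With equal medians its call was lost (adjusted p 0.0519). Col4a1 had signals of 607.4, 456.8 and 487.9 at 4 d, 332.7 and 403.0 at 8 h, and 316.3, 337.0 and 321.2 in the controls, again with no overlap between 4 d and control.

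Col4a1 rose 1.55-fold (log2 0.64, SE 0.15, limma adjusted p = 0.0250), and its other probe set by a log2 of 0.97 (limma adjusted p = 0.00843). The call on the brighter probe set was lost without any 1 of 5 arrays (control 1, control 2, control 3, 4 d 1 or 4 d 3), with adjusted p of 0.0519 to 0.118, and with quantile normalization (0.0604) or equal medians (0.134). Col4a2, which makes the partner chain of Col4a1, had 275.4, 202.6 and 163.1 at 4 d and 158.7, 167.4 and 87.1 in the controls. These groups overlapped, because 4 d 3 lay below control 2, although within each run the 4 d array was higher, by a log2 of 0.74, 0.25 and 0.80. The difference of 0.60 (95% interval -0.05 to 1.24) gave a limma adjusted p of 0.259, or 0.0175 with runs blocked. Col4a4 and Col4a6 stayed below the minimum, with highest signals of 28.3 and 41.1.

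The promoter windows of Col4a1 and Col4a5 are shown because these chains rose, and because the Col4a1 window holds most of that of Col4a2. The windows are RefSeq sequence of build GRCr8 from 250 bases before to 50 bases after the annotated start, and 26 of the 43 genes had one. The starts of Col4a1 and Col4a2 are 77 bases apart on opposite strands, so the Col4a1 window shares 176 of its 300 bases with that of Col4a2. The window of Col4a1 is chr16:84885347-84885646 (plus strand) and that of Col4a5 is chrX:109907109-109907408 (plus strand). Capitals mark matches on either strand to 4 motifs, the TATA box (TATAAA), the CCAAT box (CCAAT), the GC box (GGGCGG), which factors of the Sp family bind, and the AP-1 site (TGANTCA).
Col4a1: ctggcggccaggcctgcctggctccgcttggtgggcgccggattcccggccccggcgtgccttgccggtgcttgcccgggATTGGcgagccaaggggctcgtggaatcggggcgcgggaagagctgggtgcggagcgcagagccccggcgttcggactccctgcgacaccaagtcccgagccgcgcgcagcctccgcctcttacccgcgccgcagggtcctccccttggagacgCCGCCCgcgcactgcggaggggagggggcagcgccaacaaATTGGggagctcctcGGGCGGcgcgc
Col4a5: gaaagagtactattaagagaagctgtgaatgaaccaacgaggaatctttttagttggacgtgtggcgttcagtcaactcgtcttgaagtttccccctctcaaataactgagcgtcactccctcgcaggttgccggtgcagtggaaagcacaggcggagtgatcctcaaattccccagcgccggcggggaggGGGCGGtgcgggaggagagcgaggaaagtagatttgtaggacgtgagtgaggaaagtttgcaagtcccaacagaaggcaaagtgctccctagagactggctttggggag

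The Col4a1 window held 2 CCAAT boxes and 2 GC boxes, and the Col4a5 window held 1 GC box. Of all 33469 windows of this length 33.1% held the GC box, 37.5% the CCAAT box, 14.2% the TATA box and 7.33% the AP-1 site. Of the 26 matrix windows 15 held the GC box (57.7%), 7 the CCAAT box (26.9%), 2 the TATA box (7.69%) and 1 the AP-1 site (3.85%). These matches describe the letters and show no binding.

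Col18a1 and Col15a1 encode the related collagens XVIII and XV, which lie in or next to basement membranes and carry heparan or chondroitin sulphate chains. Col18a1 had signals of 549.7, 458.8 and 495.3 at 4 d, 202.1 and 141.6 at 8 h, and 215.9, 210.1 and 118.7 in the controls. Every 4 d array was above every other array. It rose 2.69-fold at 4 d (log2 1.43, SE 0.23, limma adjusted p = 0.00448), and its other probe set by a log2 of 1.41 (limma adjusted p = 0.00217).

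The dimmer probe set of Col15a1 gave 153.9, 103.5 and 114.9 at 4 d, against 31.3, 32.6 and 36.8 in the controls. The fitted difference was a log2 of 1.48 (limma adjusted p = 0.0104). This probe set, 1 of the 18 counted as higher, was tested only because its 4 d arrays reached the minimum, so its call is no support, and with controls below 50 the size depends on the added 16. The brighter probe set gave 197.1, 190.8 and 182.8 at 4 d, against 84.7, 92.0 and 144.1 in the controls. Its difference of 0.78 did not pass without the block (limma adjusted p = 0.0780, or 0.0131 with runs blocked).

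The promoter window of Col18a1, chr20:11473395-11473694 (plus strand) in GRCr8, is set beside that of Col16a1, chr5:147672846-147673145 (plus strand), a collagen gene that fell. Capitals mark the same 4 motifs.
Col18a1: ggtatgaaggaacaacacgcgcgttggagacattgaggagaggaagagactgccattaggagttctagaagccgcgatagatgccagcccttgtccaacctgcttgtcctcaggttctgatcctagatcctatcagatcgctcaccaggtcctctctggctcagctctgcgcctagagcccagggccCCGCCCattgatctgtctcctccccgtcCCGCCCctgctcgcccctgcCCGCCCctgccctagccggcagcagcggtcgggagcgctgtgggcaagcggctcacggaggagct
Col16a1: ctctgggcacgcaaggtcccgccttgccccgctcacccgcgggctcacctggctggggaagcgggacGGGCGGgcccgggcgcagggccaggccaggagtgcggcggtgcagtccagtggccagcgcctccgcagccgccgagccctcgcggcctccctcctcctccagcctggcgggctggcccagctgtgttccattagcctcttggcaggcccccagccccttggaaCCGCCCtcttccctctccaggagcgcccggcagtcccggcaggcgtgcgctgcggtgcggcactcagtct

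Both windows held the GC box, 3 matches for Col18a1 and 2 for Col16a1, and neither held another of the 4 motifs. A collagen gene that rose and a collagen gene that fell thus carried the same motif in these windows.

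Collagen VI makes beaded microfilaments between basement membrane and interstitial matrix, and its chains are built from Col6a1, Col6a2 and Col6a3. Col6a2 had 152.9, 206.1 and 180.5 at 4 d, 93.9 and 98.2 at 8 h, and 111.5, 92.1 and 91.7 in the controls. The 4 d and control arrays did not overlap, and the rise was 1.71-fold (log2 0.77, SE 0.18, limma adjusted p = 0.0230). It was lost without control 2, control 3, 4 d 2 or 4 d 3 (adjusted p 0.0547 to 0.0921) and with equal medians (0.0543). Col6a1, the gene next to it on chromosome 20, had 860.8, 835.8 and 733.9 at 4 d, against 629.4, 679.1 and 632.0 in the controls. That difference was smaller, a log2 of 0.32 (limma adjusted p = 0.148, or 0.0382 with runs blocked), and whether it differed from that of Col6a2 was not tested. Col6a3 had a log2 difference of 0.65 (limma adjusted p = 0.153).

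Fibrillar collagens form the banded fibres of connective tissue. Of 6 measured genes 1 rose at 4 d, where 6.13% of all probe sets were higher. This was Col3a1, which encodes type III collagen of reticular fibres. It had 1180.4, 932.0 and 999.5 at 4 d, 320.7 and 315.2 at 8 h, and 391.6, 315.7 and 760.4 in the controls. All 4 d arrays were above all others, with control 3 nearest. The rise was 2.22-fold (log2 1.15, SE 0.27, limma adjusted p = 0.0242), but the log2 difference was 1.55 in run 1, 1.52 in run 2 and 0.39 in run 3. The call was lost without control 1, control 2 or any 1 of the 4 d arrays (adjusted p 0.0543 to 0.0983) and with equal medians (0.0745).

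The type I collagen genes did not pass. Col1a1 had 527.3, 447.7 and 411.5 at 4 d, against 270.9, 314.1 and 736.6 in the controls, and Col1a2 had 456.0, 585.7 and 778.6 at 4 d, against 215.7, 275.5 and 1029.0 in the controls. In both genes the 4 d arrays were above controls 1 and 2 and control 3 was the highest of all 8 arrays. The differences were 0.20 (95% interval -0.60 to 1.00, limma adjusted p = 0.815) and 0.56 (-0.50 to 1.62, limma adjusted p = 0.558). Without control 3 that of Col1a2 was 1.23 (limma adjusted p = 0.0143), while Col1a1 still did not pass. In run 3 alone, the 4 d array was below the control by 0.82 on the log2 scale for Col1a1 and by 0.40 for Col1a2.

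Control 3 stood apart in the fibrillar collagens and in some other matrix groups. It was the highest control for 8 of the 10 fibrillar collagen probe sets (80.0%), against 30.6% of all probe sets tested, and it exceeded the mean of controls 1 and 2 by a median log2 of 0.97, against -0.11 over all probe sets. It was also highest for 7 of 9 probe sets of elastic fibres and cross-linking (77.8%, median 0.19). The same held for 2 of 3 of the small leucine-rich proteoglycans (66.7%, median 1.16). Over all 58 matrix probe sets the share was 50.0% and the median 0.08. Signals of control 3 were 2.52 times (Col1a1), 4.19 times (Col1a2), 2.15 times (Col3a1), 2.41 times (Dcn) and 3.39 times (Lum) the mean of controls 1 and 2. Of the 4 tested fibroblast markers, Pdgfra (370.1, against 292.0 and 283.9 on controls 1 and 2) and Tcf21 (90.5, against 65.9 and 52.2) were also highest on control 3. Dpt was lowest there (742.8, against 782.1 and 920.3), and Pdgfrb was below 50 on all controls. The part of these cells in the level of control 3 was not tested.

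**Figure D2:**
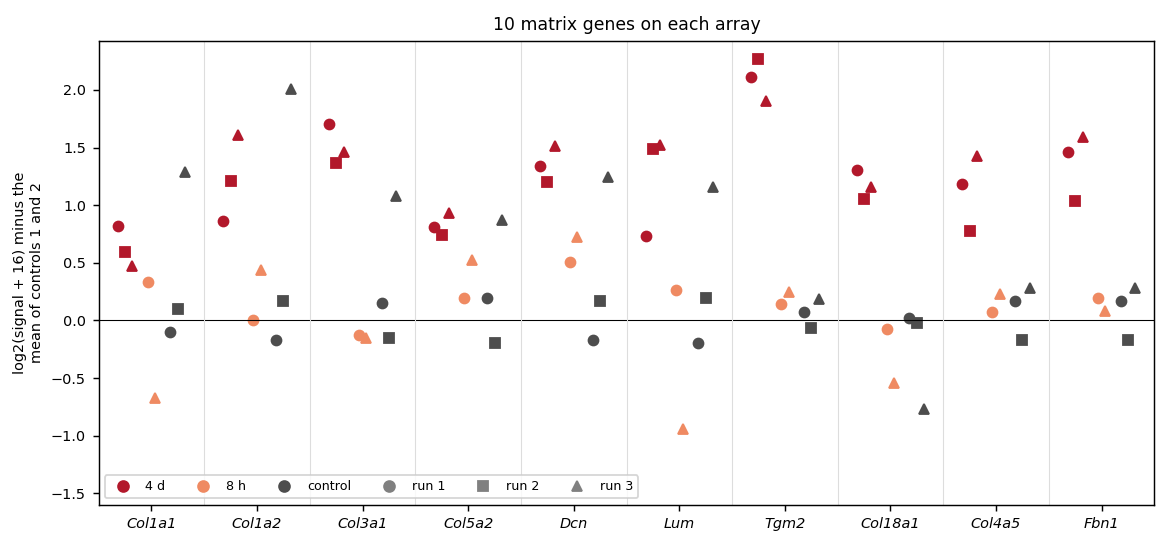
Log2(signal + 16) on each array minus the mean of controls 1 and 2, for 10 matrix genes, with 4 d, 8 h and control arrays from left to right and the run as symbol shape. Control 3 (dark triangle) lies above 0.8 for Col1a1, Col1a2, Col3a1, Col5a2, Dcn and Lum and below 0.8 for Tgm2, Col18a1, Col4a5 and Fbn1.

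Col5a2, which encodes a chain of a minor fibrillar collagen and lies next to Col3a1 on chromosome 9, was measured by 2 probe sets. The brighter gave 239.1, 227.2 and 261.0 at 4 d, against 150.9, 110.8 and 250.0 in the controls, and did not pass (log2 0.54, limma adjusted p = 0.240, or 0.0438 with runs blocked). The dimmer gave 118.5, 75.3 and 112.4 at 4 d, against 49.4, 43.6 and 46.2 in the controls, and rose (log2 0.90, limma adjusted p = 0.0339). Control 3 was high on the brighter probe set only. Col5a1 and Col2a1 had differences of -0.13 and 0.02, with 95% intervals of -1.03 to 0.77 and -0.82 to 0.86.

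Small leucine-rich proteoglycans bind collagen fibres and set their spacing. Biglycan, Bgn, had 611.5, 425.2 and 709.3 at 4 d, 307.7 and 274.1 at 8 h, and 286.3, 231.3 and 277.8 in the controls, and rose 2.09-fold without overlap (log2 1.06, SE 0.19, limma adjusted p = 0.00766). Decorin, Dcn, had 1049.7, 948.9 and 1185.4 at 4 d, 580.7 and 679.7 at 8 h, and 357.8, 456.3 and 979.5 in the controls. Here 4 d 2 lay just below control 3, and the difference of 0.94 did not pass (95% interval 0.27 to 1.61, limma adjusted p = 0.0847). It passed with runs blocked (0.00806) and without control 3 (log2 1.35, limma adjusted p = 0.00170).

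Lumican, Lum, the next protein-coding gene after Dcn on chromosome 7, had 37.6, 74.2 and 76.6 at 4 d, 22.6 and 0.8 at 8 h, and 12.1, 20.9 and 56.0 in the controls. The groups overlapped at this low signal (log2 0.86, limma adjusted p = 0.312).

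Of the 6 genes of elastic fibres and cross-linking Tgm2 and Fbn1 rose at 4 d, where 6.13% of all probe sets were higher. Tgm2 encodes transglutaminase 2, which joins glutamine and lysine residues of proteins such as fibronectin. Its signals were 1588.2, 1768.8 and 1373.4 at 4 d, 394.4 and 423.1 at 8 h, and 373.2, 337.5 and 406.2 in the controls. Every 4 d array was more than 3 times the highest control, and the 8 h arrays were among or just above the controls. Tgm2 rose 4.09-fold (log2 2.03, SE 0.14, limma adjusted p = 7.66e-05) with log2 differences of 2.04, 2.34 and 1.72 in the 3 runs, and its other probe set rose by a log2 of 1.26 (limma adjusted p = 0.00812).

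Fibrillin 1, Fbn1, the core of the microfibrils on which elastin is deposited, had 363.6, 266.6 and 399.0 at 4 d, 142.3 and 130.2 at 8 h, and 139.2, 106.5 and 151.9 in the controls. It rose 2.41-fold (log2 1.27, SE 0.19, limma adjusted p = 0.00365), with 1.29, 1.21 and 1.31 in the 3 runs. Elastin itself, Eln, had 120.2, 69.3 and 51.7 at 4 d, against 69.0, 72.4 and 75.5 in the controls (log2 0.06, 95% interval -0.74 to 0.87). Differences of the fibulins were -0.39 for Fbln1 and -0.12 for Fbln5, and lysyl oxidase, Lox, which cross-links collagen and elastin, had 0.68 (limma adjusted p = 0.130).

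Of the 3 measured glycoproteins of basement membranes 1 passed as higher at 4 d, on 1 of its probe sets, where 6.13% of all probe sets were higher. Nidogen 1, Nid1, which bridges laminin and type IV collagen, had 862.2, 782.8 and 1131.9 at 4 d, 685.6 and 551.6 at 8 h, and 596.1, 590.1 and 462.8 in the controls, and rose 1.66-fold (log2 0.73, SE 0.17, limma adjusted p = 0.0277). Its dimmer probe set gave 132.2, 123.0 and 76.8 at 4 d, against 138.3, 137.4 and 64.5 in the controls, a difference of 0.00 (95% interval -0.77 to 0.77). The mean of both probe sets did not pass (log2 0.36, limma adjusted p = 0.364), nor did the brighter one without control 1, control 2, control 3, 4 d 1 or 4 d 3 (adjusted p 0.0523 to 0.0875), with equal medians (0.0846) or without a variance trend (0.0579).

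Nidogen 2, Nid2, had 656.0, 662.7 and 661.0 at 4 d, 711.5 and 704.4 at 8 h, and 623.9, 626.8 and 664.8 in the controls. Its difference at 4 d was 0.05 with a 95% interval of -0.20 to 0.29. The difference between the nidogens was not tested. Perlecan, Hspg2, had -0.05 (95% interval -0.63 to 0.53).

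Of the 4 measured adhesive and matricellular genes Spp1 and Mgp rose at 4 d, where 6.13% of all probe sets were higher. Osteopontin, Spp1, a secreted phosphoprotein that binds integrins and is made by macrophages among other cells, had 677.9, 282.8 and 335.2 at 4 d, 197.5 and 278.6 at 8 h, and 156.5, 59.7 and 88.1 in the controls. The 3 groups did not overlap, and 4 d 1 was far above the other 4 d arrays. Spp1 rose 3.77-fold at 4 d (log2 1.91, SE 0.36, limma adjusted p = 0.00943). At 8 h its difference of 1.18 did not pass (unadjusted p = 0.0153, limma adjusted p = 0.995) and was 0.31 in run 1 and 1.50 in run 3.

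Mgp, the matrix Gla protein, an inhibitor of calcification, had 2941.6, 2868.8 and 3909.2 at 4 d, 1839.8 and 2706.9 at 8 h, and 1402.1, 1678.0 and 2075.5 in the controls. It rose 1.88-fold (log2 0.91, SE 0.20, limma adjusted p = 0.0181), with 1.06, 0.77 and 0.91 in the 3 runs. The call was lost without control 1, control 2, 4 d 1 or 4 d 3 (adjusted p 0.0505 to 0.0668) and with equal medians (0.148).

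Sparc, a collagen-binding glycoprotein, had 1706.1, 1028.3 and 2233.0 at 4 d, 762.7 and 933.1 at 8 h, and 810.5, 932.5 and 891.9 in the controls. The 4 d arrays lay above all others, but 4 d 2 was only slightly above its controls, and the difference of 0.84 did not pass (limma adjusted p = 0.0574, or 0.00752 with runs blocked). It also passed without 4 d 2 (log2 1.14, limma adjusted p = 0.00727), with quantile normalization (0.0426) and with a signal minimum of 100 (0.0495). The dimmer Sparc probe set rose by a log2 of 1.12 (limma adjusted p = 0.0372). Fibronectin, Fn1, had 121.6, 72.1 and 122.8 at 4 d, against 43.2, 69.2 and 62.0 in the controls, and did not pass (log2 0.70, limma adjusted p = 0.156).

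**Figure D3:**
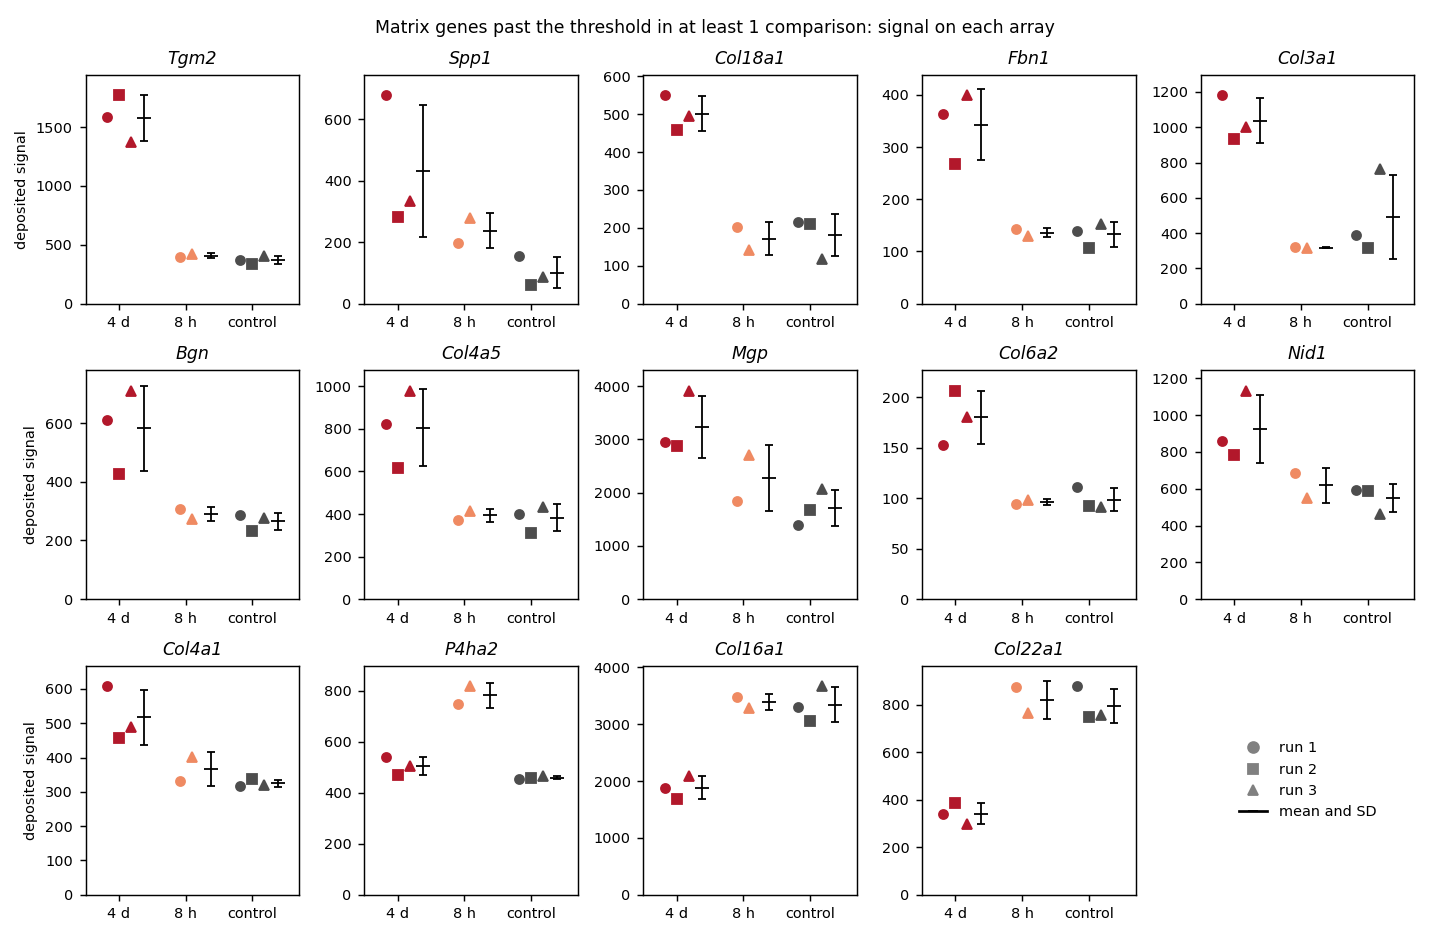
Deposited signal (linear axis from 0) on each array for the 14 genes past the threshold in at least 1 of the 3 comparisons, with 4 d, 8 h and control from left to right, the run as symbol shape, and bars for the mean and SD. In the 11 genes that rose the 4 d arrays lie above all controls, in Col22a1 and Col16a1 they lie below, and P4ha2 is highest at 8 h.

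Of the 16 measured genes of other collagens 2 rose (Col18a1 and Col6a2) and 2 fell (Col22a1 and Col16a1), with a median of -0.11, where 6.13% of all probe sets were higher and 3.71% lower. Both that fell encode collagens that associate with fibrils or basement membranes rather than forming fibres. Col22a1, which encodes collagen XXII, known from tissue junctions such as that of muscle and tendon, had 338.6, 386.6 and 298.5 at 4 d, 876.9 and 765.6 at 8 h, and 877.8, 751.1 and 759.5 in the controls. All 4 d arrays lay below all others. The difference at 4 d was -1.19 (SE 0.14, limma adjusted p = 0.000909), with -1.33, -0.93 and -1.30 in the 3 runs.

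Col16a1, which encodes collagen XVI, had 1877.5, 1680.7 and 2082.1 at 4 d, 3484.5 and 3285.4 at 8 h, and 3303.9, 3056.1 and 3663.6 in the controls, again without overlap. Its difference at 4 d was -0.83 (SE 0.13, limma adjusted p = 0.00349), with -0.81, -0.86 and -0.81 in the 3 runs, and it did not pass with equal medians (0.0569). Col20a1 had 90.2, 82.1 and 66.9 at 4 d, 224.7 and 169.8 at 8 h, and 220.4, 162.5 and 93.5 in the controls. Its difference of -0.81 did not pass (limma adjusted p = 0.102), but passed with runs blocked (0.00865), with quantile normalization (0.0257), with equal medians (0.0417) and without control 3 (log2 -1.11, limma adjusted p = 0.0161). The remaining genes of other collagens, Col12a1, Col14a1, Col23a1, Col26a1, Col6a6, Col8a2, Col9a2 and Col9a3, had differences from -0.47 to 0.32 and did not pass. Of 10 late spermatid markers 4 fell at 4 d, and the ranges of their summed signal overlapped slightly (76193 to 110620 at 4 d, against 108677 to 164231 in the controls). Their part in these falls was not tested.

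At 8 h the question was how early matrix genes respond. No matrix probe set passed in limma (0 of 58 higher and 0 lower, where 0.0656% and 0% of all probe sets were), and 2 of the 58 had an unadjusted p below 0.05, against 775 of 19808. These were Spp1 and P4ha2. The 8 h arrays lay above every control for 7 probe sets and below for 5, where 7.3% and 7.61% of all probe sets did. P4ha2 encodes a catalytic subunit of prolyl 4-hydroxylase, the enzyme that hydroxylates collagen chains so that the triple helix is stable. Its signals were 538.9, 471.5 and 506.0 at 4 d, 748.4 and 817.4 at 8 h, and 452.6, 458.8 and 464.5 in the controls.

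Both 8 h arrays of P4ha2 were above all 6 others. The difference of 8 h from control was 0.75 (95% interval 0.45 to 1.05, limma adjusted p = 0.158, unadjusted p = 0.000232), with 0.71 in run 1 and 0.79 in run 3. With the run as a block it passed (log2 0.73, limma adjusted p = 0.0434) as the only matrix probe set, where 0.268% of all probe sets were higher and 0.0101% lower. The dimmer P4ha2 probe set gave 50.6 and 51.2 at 8 h, against 38.9, 25.9 and 11.2 in the controls. It reached the minimum only through the 8 h arrays and did not pass, so it bears little on the brighter one. P4ha1, the other catalytic subunit among the members, had a difference of -0.19 at 8 h (95% interval -0.63 to 0.25). P4ha3, a catalytic subunit outside the member list, had -2.33 at 8 h and did not pass (SE 0.6, limma adjusted p = 0.448). Its 8 h signals were 5.3 and 89.5, against 290.9, 269.5 and 137.1 in the controls. It met the minimum only through the controls.

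The comparison of 4 d with 8 h addressed when the changes appeared. It shares the 4 d arrays with the comparison against control. Of the 58 probe sets 11 were higher at 4 d than at 8 h and 3 lower, where 3.58% and 2.47% of all probe sets were. By brightest probe set these were Tgm2, Col3a1, Col18a1, Fbn1, Col4a5, Bgn and Col6a2, which were higher, and Col22a1, Col16a1 and P4ha2, which were lower. With runs blocked these counts were 22 and 4, where 8.55% and 7.08% of all probe sets were. The 4 d arrays lay above both 8 h arrays for 30 probe sets and below both for 7, where 21.1% and 13.8% of all probe sets did. The count of 11 was 2 without 8 h 2, 3 without 4 d 1, 5 without 8 h 1, 6 without 4 d 3 and 4 with equal medians, and the count of 3 lower was 1 without either 8 h array. For these settings too the shares of all probe sets are not given.

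Tgm2 differed by a log2 of 1.90 (SE 0.15, limma adjusted p = 0.000318) and Col3a1 by 1.65 (SE 0.30, limma adjusted p = 0.0129). Col18a1 differed by 1.48 and Fbn1 by 1.22, and Col22a1 by -1.23 (limma adjusted p = 0.00262). P4ha2 differed by -0.62 (limma adjusted p = 0.0268). Tgm2 and Col22a1 passed under all alternatives run. Col18a1 lost its call without 8 h 2 (adjusted p 0.112), and Col16a1 without either 8 h array (0.0649 and 0.0659). Col3a1 lost it without 8 h 1, 8 h 2 or 4 d 1 (0.0556 to 0.102), and Fbn1 without the same arrays (0.0565 to 0.103). Bgn (0.0908 to 0.218) and Col4a5 (0.0734 to 0.138) lost it without either 8 h array, 4 d 1 or 4 d 3. Col6a2 lost it without any treated array or without control 1 or control 2 (0.0598 to 0.197), and P4ha2 without any treated array (0.0635 to 0.206). With equal medians the call was lost for Col3a1 (0.0516), Fbn1 (0.0525), Col16a1 (0.0813), P4ha2 (0.107), Col6a2 (0.132), Bgn (0.139) and Col4a5 (0.160). Without a trend it was lost for Col4a5 (0.0565), P4ha2 (0.0581) and Bgn (0.0621), and with quantile normalization for Bgn (0.0551) and Col6a2 (0.0921). Without a signal minimum it was lost for Col6a2 (0.0818). The mean of both P4ha2 probe sets gave -0.38 (0.319). Spp1, whose 8 h arrays both lay above every control, did not pass between 4 d and 8 h (log2 0.74, limma adjusted p = 0.388, or 0.0334 with runs blocked).

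Genes that fold and process collagen rose in part. Of 15 measured genes of this list 6 rose and 2 fell at 4 d, where 6.13% of all probe sets were higher and 3.71% lower, with a median log2 difference of 0.47. Pcolce, an enhancer of procollagen C-proteinase, had 1433.1, 1200.0 and 1347.7 at 4 d, against 499.8, 587.3 and 542.4 in the controls (log2 1.26, limma adjusted p = 0.000452). The collagen chaperone Serpinh1 rose by 1.01, the prolyl 4-hydroxylase beta subunit P4hb by 1.00 and the prolyl isomerase Fkbp10 by 0.99. In each of these 4 genes the 4 d arrays lay above all controls.

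The 2 falls were those of P4ha3, another catalytic subunit of prolyl 4-hydroxylase, and Bmp1, the procollagen C-proteinase. P4ha3 had 22.9, 30.2 and 9.8 at 4 d, 5.3 and 89.5 at 8 h, and 290.9, 269.5 and 137.1 in the controls (log2 -2.73, SE 0.53, limma adjusted p = 0.0113). Its 4 d arrays lay below the minimum of 50, so the size depends on the added 16. Of the treated arrays only 8 h 2 reached the minimum. P4ha3 was thus tested only because its controls were high, so its call, 1 of the 2 falls, is no support. Bmp1 had 82.8, 166.3 and 94.0 at 4 d, against 276.4, 248.8 and 363.8 in the controls (log2 -1.30, limma adjusted p = 0.0137). P4ha1, P4ha2 and P4ha3 thus had differences at 4 d of -0.10, 0.13 and -2.73.

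The same shares over all probe sets, 6.13% and 3.71%, stand behind the 4 d counts of the lists that follow, and 1 call in a list of 5 to 8 genes is not far from them. Of 27 other measured matrix proteins 5 rose and 0 fell at 4 d, with a median of 0.30. They were Emilin1 (log2 1.43) and Efemp1 (1.25), Ecm1 (1.01), the heparan sulphate proteoglycan Agrn (0.91) and the fibulin Efemp2 (0.72). Of 8 receptors and surface proteoglycans 3 rose, the syndecans Sdc3 (log2 2.29) and Sdc4 (1.39) and dystroglycan, Dag1 (0.69). Sdc3 was below 50 on all controls and Emilin1 on all controls and 8 h arrays. Both, and Efemp1 with 1 control at 50 or more, were tested only through their 4 d arrays, and their sizes depend on the added 16. Of 5 matrix-degrading proteases the collagenolytic cathepsin Ctsk rose (log2 1.06) and Mmp2 (0.60) and Mmp14 (0.57) did not pass. With runs blocked Mmp2 passed (limma adjusted p = 0.0307). At 8 h no gene of these 4 lists passed (0 of 55 in limma), where 0.0656% of all probe sets were higher and 0% lower, so that 0 is near these shares. With runs blocked Sdc4 did (log2 0.81 without the block), where 0.268% of all probe sets were higher and 0.0101% lower.

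Markers of several cell types moved with the matrix genes at 4 d, where again 6.13% of all probe sets were higher and 3.71% lower. Of 4 tested fibroblast markers 2 rose, Dpt and Pdgfra, and the summed signal of the 5 measured ones was 2772 to 3807 at 4 d, 1244 to 1356 at 8 h and 1194 to 1293 in the controls, with Thy1 below 50 on every array. Dpt made up most of this sum, so its ranges do not stand for the other fibroblast markers. Log2 differences at 4 d were 1.47 for Dpt, 0.85 for Pdgfra, 1.27 for Pdgfrb and 0.82 for Tcf21. Of 11 leukocyte and macrophage markers 7 rose, and the sum of 12 was 4961 to 5678 at 4 d, 2211 to 2282 at 8 h and 2050 to 2303 in the controls, with Itgam below 50 on every array. Of 8 peritubular and smooth muscle markers 1 rose, Myl9, with sums of 2974 to 3834 at 4 d, 2878 to 2988 at 8 h and 2749 to 2834 in the controls.

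Of 7 Sertoli markers 1 rose, Cldn11, and the sum of 8 was 16001 to 21056 at 4 d, 12378 to 13842 at 8 h and 11033 to 13104 in the controls, with Inhba below 50 on every array. Clu and Cldn11 made up most of this sum, so its ranges do not stand for the other Sertoli markers. Log2 differences at 4 d were 0.76 for Cldn11 and 0.51 for Clu. They were 0.62 for Dhh, 0.30 for Gata4, 0.24 for Wt1, -0.08 for Amh and -0.49 for Inhbb. With runs blocked Clu and Dhh also passed as higher (limma adjusted p = 0.000515 and 0.0286) and Inhbb as lower (0.0199). None of 6 endothelial and 6 Leydig cell markers passed without the block (0 each), but with runs blocked 1 and 3 were higher at 4 d. Sums of the endothelial and Leydig markers were 618 to 753 and 7153 to 11967 at 4 d, 360 to 527 and 5206 to 7190 at 8 h, and 409 to 526 and 5871 to 8145 in the controls. With runs blocked 4 fibroblast, 10 leukocyte and macrophage, 3 Sertoli and 2 peritubular and smooth muscle markers were higher at 4 d. In the Sertoli and the peritubular lists 1 marker each was lower. Of all probe sets 13.3% were higher and 9.17% lower with the block.

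The 4 late spermatid markers that fell were Prm2, Akap4, Fscn3 and Cabs1. The sum of all 10 was 112909 to 147206 at 8 h, and all 10 passed as lower at 4 d once runs were blocked, where 9.17% of all probe sets did. Of 4 spermatocyte markers 0 changed (15362 to 18867 at 4 d, 17127 to 20886 at 8 h, 15236 to 19702 in the controls). Both red cell markers rose (3199 to 5610 at 4 d, 2041 to 2305 at 8 h, 1510 to 2485 in the controls). The part of these cell types in the changes of the matrix genes was not tested.

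Of the members below the minimum, Postn and Vcan, which encode periostin and versican, reached at most 31.2 and 25.9 on any array. The other 16 were collagen genes with highest signals of 6.2 (Col5a3) to 61.0 (Col11a1). Besides these and the type IV chains named above they were Col10a1, Col11a2, Col13a1, Col17a1, Col19a1, Col24a1, Col25a1, Col27a1, Col6a5, Col7a1, Col8a1 and Col9a1. At the edge of the rule, Col24a1 reached 49.0 on its second-highest array and stayed out, while Col5a1 reached 50.2 on a dimmer probe set that was kept.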

How the data were processed

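Whole testis RNA was measured on Affymetrix rat genome arrays. Per the labels, 0.1 g of frozen tissue was extracted and 5 µg of total RNA was labelled. The authors deposited 1 signal intensity for each probe set, made with MAS 5.0 per the series design text, which also names GeneSpring 7.2, and every array's 2% trimmed mean was 250.1. Detection calls were not used here. Here log2(signal + 16) was taken of the deposited values, so fold changes of dim genes are understated. The 57 control probe sets were left out, and the test took in the 19808 probe sets whose signal reached 50 on 2 arrays or more. A single limma model (version 3.58.1, R 4.3.3, eBayes with trend) took in the 8 arrays without a block, followed by Benjamini-Hochberg adjustment over all probe sets. The fit was tested on simulated data with independent noise and no run effect. That test therefore does not bear on the deviations that arrays of a run share.

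Genes were named from probe sets with 1 symbol (20826 of 31042) in the platform annotation, and a gene was represented by its brightest probe set. All members are named. By their brightest probe set, values on every array are given for genes past the threshold in any comparison, for the 4 others with the largest differences at 4 d and for further genes chosen after their values were seen. The members and lists were chosen with earlier results of these data known.

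Controls and 4 d arrays with equal numbers shared a hybridisation run, while 8 h 2 belonged to run 3. Deviations from group means correlated at 0.353 to 0.506 between arrays of the same run and at -0.475 to 0.246 otherwise, so the run was taken to pair the arrays. The main fit has no block, so its calls and intervals do not use this pairing, and values with the run as a replicate block are an alternative. For matrix genes against control they stand beside a result where they change its call. For genes of the other lists they are given only in part or as counts. Alternatives were other pseudocounts (2 and 64), no signal minimum or one of 100, quantile normalization, equal medians, the block, no variance trend, and each array left out in turn.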

Additional observations from a re-analysis of the deposited data

Results flagged for a closer look

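In 10 of 43 matrix genes the direct test of 4 d against 8 h passed (7 higher and 3 lower), where 3.58% of all probe sets were higher and 2.47% lower. The signal of these genes after the same dose thus differed between the time points in this fit, with 2 arrays at 8 h. Of the 10 calls 2 held under all alternatives (Tgm2 and Col22a1). The 10 log2 differences were 1.90 for Tgm2, 1.65 for Col3a1, 1.48 for Col18a1, 1.22 for Fbn1, 0.98 for Col4a5, 0.93 for Bgn and 0.80 for Col6a2, and -1.23 for Col22a1, -0.85 for Col16a1 and -0.62 for P4ha2. P4ha2 was the gene of this set with its highest signals at 8 h. No group was large enough for a check of outlying arrays, which needs 4 samples.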

How the results depend on the processing

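With 2 or 3 arrays a group, the counts depended on scaling and on single arrays. With equal array medians 9 matrix probe sets were higher at 4 d than in control and 4 higher than at 8 h. Under the settings of the report, the counts of 18 and 11 probe sets came to 11 and 7 genes by the brightest probe set. With the run as a replicate block 1 was higher at 8 h than in control and 22 were higher at 4 d than at 8 h, and the block ended no call among the named genes. With each array left out in turn, 10 to 19 were higher and 2 to 3 lower at 4 d than in control, 2 to 16 higher and 1 to 4 lower at 4 d than at 8 h, and 0 higher or lower at 8 h than in control. The other alternatives kept every count within 1.5 times. Shares of all probe sets are given only for the main fit and the block. Under the other settings the counts do not tell a change in matrix genes from a change across the array. Of the 13 genes called at 4 d against control 6 kept their call under all alternatives tried (Tgm2, Spp1, Col18a1, Fbn1, Bgn and Col22a1), and no call changed sign (0). Of 10 genes called between 4 d and 8 h 2 did so (Tgm2 and Col22a1), and the cause of the losses was not tested. Leaving out an array also leaves fewer samples. Signals near 50, as those of Lum or Fbln5, limit what could be detected.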
